A study of Mus musculus with 11 samples.

Results

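The expression of 8 genes of vascular growth was followed in mouse embryonic stem cells (ESCs) that lack either Dicer, the enzyme that cuts microRNAs from their precursors, or the transcription factor cMyc. They were the Vegf receptor genes Kdr, Flt1 and Flt4, the ligand gene Vegfa, the co-receptor genes Nrp1 and Nrp2, the adhesion gene Pecam1 and the angiopoietin receptor gene Tek. All 8 were found by RefSeq identifier as 1 row each, among 19683 coding RefSeq rows of the Dcr table and 16484 of the cMyc table. The genes were chosen with the differences between Dcr KO and Dcr WT and between cMyc KO and cMyc flox already known. Their own differences in those comparisons are therefore given as a description, without a test. All 8 were read in every library and passed the filter on low values.

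The cells were feeder-free ESCs of strain 129S4/SvJae kept on gelatin. Poly(A)-selected RNA was sequenced from 3 Dicer knockout lines (Dcr KO lines 1, 3 and 4, 1 library each), from wild-type cells (Dcr WT, 2 libraries), from cMyc-/- cells (cMyc KO, 1 library) and from cMyc f/f cells, whose cMyc alleles are floxed (cMyc flox, 1 library). Sequencing was paired-end for the Dcr libraries but single-end for those of the cMyc pair. No treatment, age or sex enters these comparisons, and the sources used here do not say whether the Dcr WT libraries came from separate cultures, so that p-values measure only the spread between these samples. The chromatin libraries of the series were not analysed here.

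VEGF-A is the main growth factor of blood vessels. It signals chiefly through the receptor tyrosine kinase encoded by Kdr (VEGFR2, also called Flk1), which marks early mesoderm that can form endothelium and blood. The Flt1 product (VEGFR1) binds VEGF-A tightly but signals weakly, and its soluble form acts as a decoy. The Flt4 product (VEGFR3) is the receptor of VEGF-C and VEGF-D in lymphatic vessels. Neuropilins bind both VEGF and semaphorins, Tek (Tie2) binds angiopoietins, and Pecam1 (CD31) is an endothelial junction protein that ESCs also carry on their surface.

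Depth was 101815723 to 278006158 reads in the Dcr libraries, and 31633011 and 24660365 reads in the cMyc KO and cMyc flox libraries. Features of ribosomal RNA held 30.0% of the cMyc KO reads and 28.1% of the cMyc flox reads. In every Dcr library 0% of the counted reads lay on such features. That 0% cannot show that the RNA held none, because the Dcr table may lack rows of this class. Reads on coding features numbered 19269607 in cMyc KO and 15364985 in cMyc flox. Values are normalised read counts, that is reads divided by 1 factor per library. They depend on transcript length, so levels are compared between libraries and not between genes. Dicer1 reads fell in Dcr KO (log2 fold change −1.17 ± 0.15 SE, limma adjusted p = 0.000556). Myc fell in the same lines (−3.44 ± 0.39, adjusted p = 0.000289) and was at 12 reads in the cMyc KO library, against 446 in cMyc flox. Of the stem cell markers, Pou5f1, Sox2 and Nanog did not pass the test (adjusted p = 0.403, 0.626 and 0.0958). In bulk RNA, fewer cells of a type and less RNA per cell cannot be told apart.

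Of the 3 Vegf receptor genes, Kdr and Flt4 were higher in Dcr KO and Flt1 was lower. Kdr stood at 4771, 9291 and 6632 in Dcr KO lines 1, 3 and 4, against 364 and 235 in Dcr WT libraries 1 and 2. Every knockout line was above both wild-type libraries, and the group means were 6898 ± 2272 (SD, n = 3) and 299 ± 92 (SD, n = 2), a 23.0-fold ratio. On the log2(value + 1) scale, which understates changes near 0, the difference was 4.50 ± 0.29 (SE). Of 17140 coding features tested, 35 had a higher log2 fold change than Kdr.

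Flt1 was lower in Dcr KO. It stood at 191, 121 and 75 in Dcr KO lines 1, 3 and 4, against 871 and 1035 in Dcr WT libraries 1 and 2. The groups did not overlap, with means of 129 ± 58 (SD, n = 3) in Dcr KO and 953 ± 116 (SD, n = 2) in Dcr WT, which is 7.38-fold lower in Dcr KO (log2 fold change −2.97 ± 0.36). A lower log2 fold change was found in 398 of the 17140 coding features. The table has a single row for the gene, so the membrane-bound and soluble forms cannot be told apart.

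Flt4 stood at 4399, 4507 and 4483 in the 3 Dcr KO lines, against 2770 and 2158 in Dcr WT libraries 1 and 2. The knockout lines lay close together, and all were above wild type. The means were 4463 ± 57 in Dcr KO and 2464 ± 433 in Dcr WT, a 1.81-fold ratio (log2 fold change 0.87 ± 0.16).

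**Figure D1:**
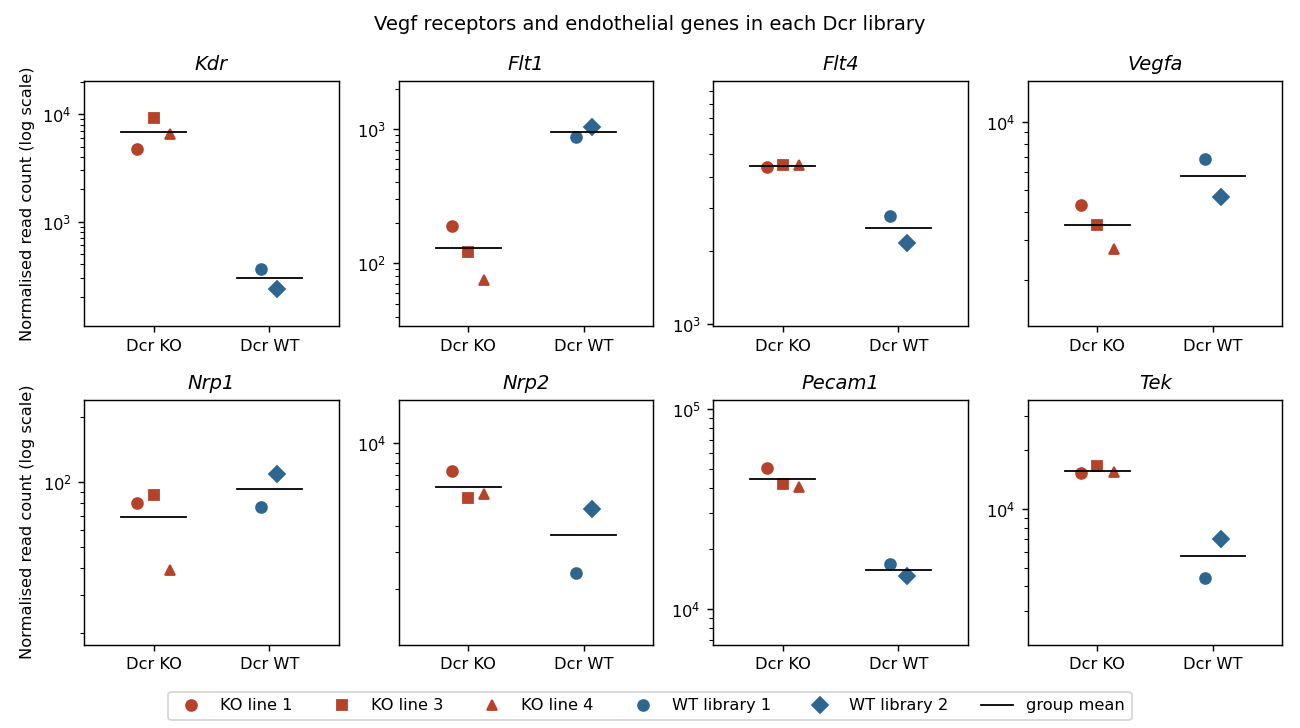
Normalised read counts (log axes) of the 8 genes in the 3 Dcr KO lines and the 2 Dcr WT libraries; each point is 1 library and each horizontal line a group mean. Kdr, Flt4, Nrp2, Pecam1 and Tek are higher in every Dcr KO line than in either Dcr WT library, Flt1 and Vegfa are lower in every line, and Nrp1 overlaps.

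Promoter windows are shown for the 3 receptor genes, which did not all share a direction, and for Tek. The Tek window has the fewest CG dinucleotides of the set. Each window is the 250 bases before an annotated RefSeq start in GRCm38.p6, another build than the mm9 of the deposited tables. Capitals mark GGGCGG, the GC box bound by Sp1, and AGGAA, the core of many ETS-factor sites, on either strand.
Kdr, chr5:75978456-75978705, minus strand: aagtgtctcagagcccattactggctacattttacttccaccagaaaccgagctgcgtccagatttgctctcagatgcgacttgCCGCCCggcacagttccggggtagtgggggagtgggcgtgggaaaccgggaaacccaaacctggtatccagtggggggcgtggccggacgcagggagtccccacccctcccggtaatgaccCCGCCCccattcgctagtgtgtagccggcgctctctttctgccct
Flt1, chr5:147726012-147726261, minus strand: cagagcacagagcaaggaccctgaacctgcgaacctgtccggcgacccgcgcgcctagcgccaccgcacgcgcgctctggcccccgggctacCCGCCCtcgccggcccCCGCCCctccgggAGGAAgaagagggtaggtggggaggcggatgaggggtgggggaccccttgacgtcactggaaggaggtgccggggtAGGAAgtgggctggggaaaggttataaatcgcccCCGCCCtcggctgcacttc
Flt4, chr11:49609429-49609678, plus strand: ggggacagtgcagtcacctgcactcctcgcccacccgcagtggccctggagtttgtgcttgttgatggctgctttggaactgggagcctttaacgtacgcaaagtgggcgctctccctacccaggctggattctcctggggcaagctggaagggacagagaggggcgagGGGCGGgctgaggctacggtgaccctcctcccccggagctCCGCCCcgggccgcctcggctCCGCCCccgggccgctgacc
Tek, chr4:94739039-94739288, plus strand: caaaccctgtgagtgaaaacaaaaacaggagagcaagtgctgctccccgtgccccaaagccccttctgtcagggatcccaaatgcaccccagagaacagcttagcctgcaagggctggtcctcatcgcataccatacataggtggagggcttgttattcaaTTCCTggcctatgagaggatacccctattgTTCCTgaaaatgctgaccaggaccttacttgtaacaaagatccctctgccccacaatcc

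In these windows GGGCGG occurred 2 times for Kdr, 3 times for Flt1, 3 times for Flt4 and 0 times for Tek, and 32.7% of all 32851 RefSeq windows of this length hold it. AGGAA occurred 0 times for Kdr and Flt4 and 2 times each for Flt1 and Tek, against 60.3% of windows with at least 1. CG dinucleotides numbered 16, 23, 16 and 2 in the windows of Kdr, Flt1, Flt4 and Tek, against a median of 6 over all windows. The E-box CACGTG, which Myc with its partner Max can bind, was in 0 of the 8 windows found for 7 of the genes (Vegfa has 2), and in 6.02% of all windows. The pentamer ACGTG, 1 form of the core of hypoxia response elements and part of that E-box, was found once. It lay in the second Vegfa window, and 16.6% of all windows hold it. Other forms of that core were not searched. TATAAA was found once, in the Flt1 window (12.4% of all windows). No Pecam1 window was used. These matches describe the letters of the windows only.

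The make-up of the receptor reads differed between the genotypes. Of the reads counted on Kdr, Flt1 and Flt4 together, Kdr took 51.0%, 66.7% and 59.3% in Dcr KO lines 1, 3 and 4, against 9.09% and 6.84% in Dcr WT libraries 1 and 2. Flt1 took 2.04%, 0.872% and 0.670% in the knockout lines and 21.7% and 30.2% in the wild-type libraries. Each share rests on 10550 to 18224 reads in Dcr KO and on 1991 and 3755 reads in Dcr WT. The 95% Clopper-Pearson interval of the Kdr share was widest in Dcr WT library 1, at 7.86 to 10.4%, and intervals cover counting error only. For each Flt1 read there were 25.0, 76.5 and 88.4 Kdr reads in Dcr KO lines 1, 3 and 4, against 0.418 and 0.227 in Dcr WT libraries 1 and 2. These ratios are not corrected for transcript length and serve to compare libraries. The summed value of the 3 receptor genes was 9360, 13920 and 11189 in the knockout lines and 4005 and 3428 in the wild-type libraries.

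**Figure D2:**
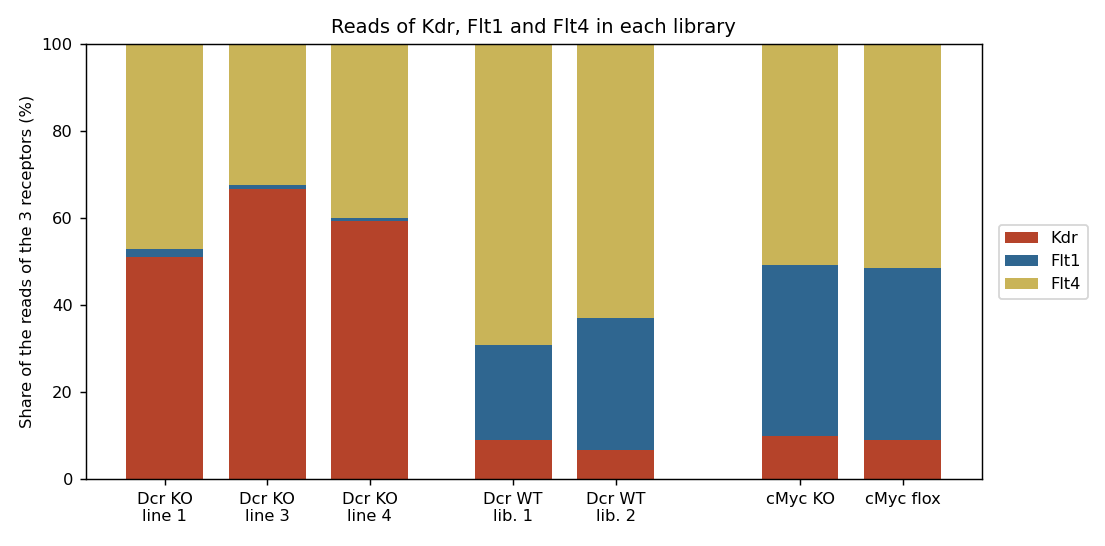
Share (%) of the reads on Kdr, Flt1 and Flt4 that fell on each gene, in every RNA library, not corrected for transcript length. Kdr takes 51.0 to 66.7% in the Dcr KO lines, against 9.09% and 6.84% in Dcr WT, and 10.04% and 9.11% in cMyc KO and cMyc flox.

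The ligand gene Vegfa stood at 4283, 3486 and 2753 in Dcr KO lines 1, 3 and 4, against 6880 and 4650 in Dcr WT libraries 1 and 2. All knockout lines were below both wild-type libraries, but the gap between line 1 and library 2 was smaller than the gap between the wild-type libraries. The log2 fold change was −0.71 ± 0.23, and it ranged from −1.0 to −0.43 when each library was left out in turn.

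Among the co-receptors, Nrp2 stood at 7352, 5428 and 5711 in Dcr KO lines 1, 3 and 4, against 2382 and 4836 in Dcr WT libraries 1 and 2. The groups did not overlap, yet Dcr WT library 1 was 0.492 times library 2. The log2 fold change of Nrp2 was 0.85 ± 0.27, and 0.34 without Dcr WT library 1 and 1.36 without library 2. Nrp1 was read at a low level, at 79.9, 87.1 and 39.0 in the knockout lines (90, 114 and 51 reads) and 76.4 and 110 in the wild-type libraries (38 and 120 reads). Its groups overlapped, and the log2 fold change was −0.49 ± 0.43.

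Pecam1 and Tek were both higher in Dcr KO. Pecam1 stood at 50398, 41775 and 40588 in Dcr KO lines 1, 3 and 4, against 16750 and 14604 in Dcr WT libraries 1 and 2. Its means of 44254 ± 5354 in Dcr KO and 15677 ± 1517 in Dcr WT were 2.82-fold apart (log2 fold change 1.49 ± 0.15). Tek stood at 15166, 16484 and 15388 in the knockout lines, against 4436 and 6993 in the wild-type libraries. Its means of 15679 ± 706 and 5714 ± 1808 were 2.74-fold apart, also with a log2 fold change of 1.49 (± 0.19). Neither gene overlapped between the groups.

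In all, 7 of the 8 genes had an adjusted p under 0.05 in the fit over all features, 5 of them higher and 2 lower in Dcr KO. Over all 42358 features tested 31.7% passed that threshold (16.9% higher and 14.8% lower), and over the 17140 coding features 43.2% (20.5% and 22.7%). On the recovered reads edgeR called 43.5% of coding features (20% higher and 23.5% lower) and DESeq2 45.8% (21.3% and 24.5%). In 7 of the 8 genes the groups did not overlap, 5 with Dcr KO above and 2 with Dcr KO below. The same held for 57.4% of all features (30% above and 27.4% below) and 66.3% of coding features (30.8% above and 35.4% below). Because these very values chose the genes, nothing is read from the counts or from the median of the 8 genes. The median log2 fold change of the 8 genes was 0.86, against −0.06 for coding features and 0.08 for all features tested.

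The spread among the knockout lines differed from gene to gene. The highest line was 1.02 times the lowest for Flt4, 1.09 times for Tek and 1.24 times for Pecam1, against 1.95 times for Kdr, 2.23 times for Nrp1 and 2.54 times for Flt1. Relative to the wild-type mean, Kdr was 15.9, 31.0 and 22.2 times as high in lines 1, 3 and 4. Line 4 was the lowest of the 3 lines for Flt1, Vegfa, Nrp1 and Pecam1, and line 1 the highest for Flt1, Vegfa, Nrp2 and Pecam1. Between the wild-type libraries, library 1 was 1.55 times library 2 for Kdr, 1.48 times for Vegfa, 0.492 times for Nrp2 and 0.634 times for Tek.

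Across the 5 Dcr libraries, the coding genes whose profile lay nearest to that of Kdr were Cyp2w1, Zbp1, Meis2, Plagl1 and Grin3a. Likeness was the Euclidean distance between log2 profiles centred on their own mean, over 12974 genes with a mean of at least 100, and ran from 0.350 for Cyp2w1 to 0.839 for Grin3a, against a length of 5.0 for the Kdr profile itself. Zbp1, for example, stood at 8328, 12141 and 8184 in the Dcr KO lines and 465 and 428 in the Dcr WT libraries. The nearest genes were Vwa5b2 for Flt1 (distance 0.295), Zfp618 for Vegfa (0.0713), Lcp1 for Nrp2 (0.217), Plekhh1 for Pecam1 (0.0997) and Ephb6 for Tek (0.125). Nrp1 had a mean under 100 and was not compared. The 5 libraries fall into 2 groups, so a small distance requires a genotype difference of like size and sign.

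Of the 16 protein-coding genes that flank the 8 genes in the GRCm38.p6 annotation, 14 were tested, 7 rose and 1 fell in Dcr KO (limma adjusted p under 0.05), against 20.5% higher and 22.7% lower among coding features. Without Dcr KO lines 1, 3 and 4 in turn, 3, 3 and 4 of them rose. Kit, a stem cell factor receptor gene beside Kdr, rose (log2 fold change 0.87 ± 0.21, adjusted p = 0.0133), but not without Dcr KO line 1, 3 or 4 (adjusted p = 0.0516, 0.0654 and 0.0698). Srd5a3, on the other side of Kdr, did not pass (0.35 ± 0.17, adjusted p = 0.147). Beside Flt1, the proteasome maturation gene Pomp fell (−0.94 ± 0.14, adjusted p = 0.00124) and Pan3 did not pass (0.18 ± 0.13). Ift74, a ciliary transport gene beside Tek, rose (1.63 ± 0.15, adjusted p = 0.000123). Itgb1 beside Nrp1 rose (0.96 ± 0.15, adjusted p = 0.00131), as did Pard3b beside Nrp2 (2.01 ± 0.30, adjusted p = 0.00119). Ino80d beside Nrp2 (0.72 ± 0.18), Scgb3a1 beside Flt4 (2.01 ± 0.61) and Tex2 beside Pecam1 (0.52 ± 0.14) rose too, but none of the 3 did without Dcr KO line 1 or without line 3. Nothing in the sources used here says whether reads were counted by strand, so reads of overlapping antisense transcripts could be counted in either gene.

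The wider pathway was followed in 9 lists of Vegf, angiopoietin, semaphorin, hypoxia, Notch and endothelial genes outside the 8. Like the 8 genes, the lists were chosen with earlier results of these data known, so the calls are no independent check. Of their 130 genes, 124 were tested, 25 rose and 28 fell in Dcr KO (limma, adjusted p under 0.05), and 71 did not pass. The median log2 fold change was −0.06, the same as for coding features, of which 20.5% rose and 22.7% fell. Under total count scaling of coding features 24 rose and 37 fell. That scaling also moved the median of coding features to −0.17. Over all features 6044 then rose and 7211 fell, against 7171 and 6273 in the deposited scaling.

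**Figure D3:**
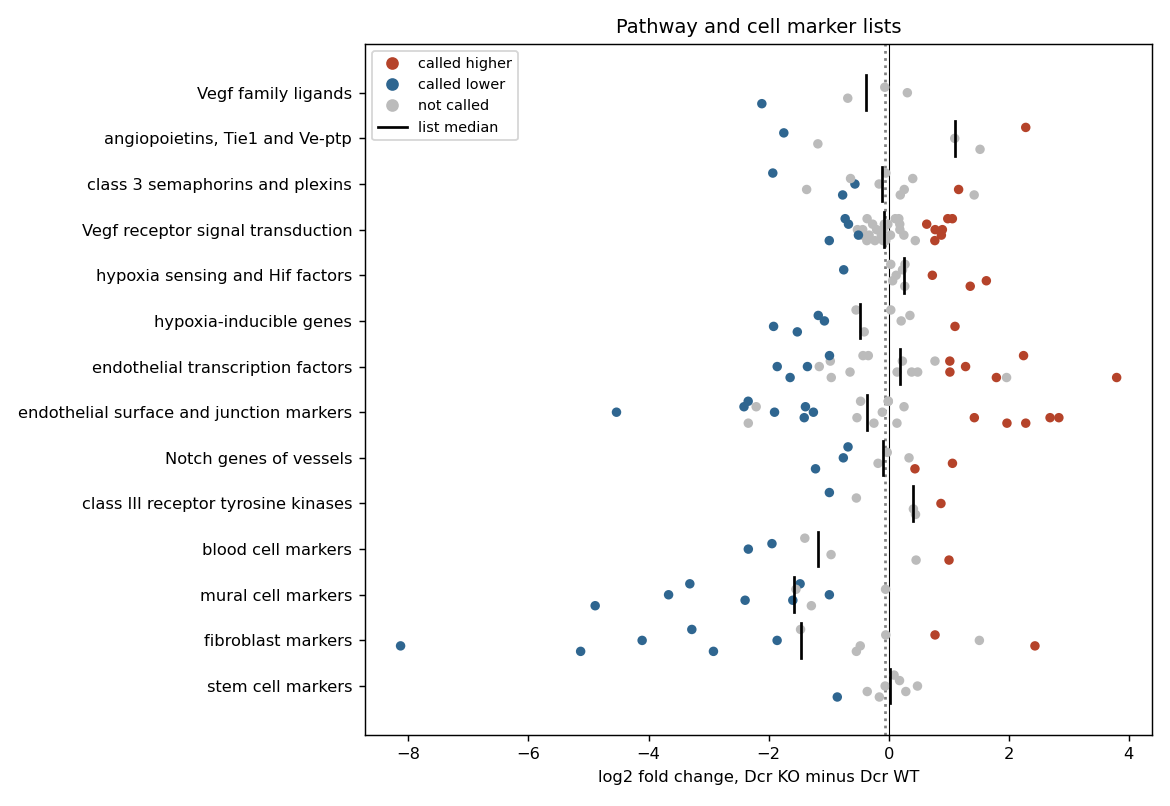
Log2 fold change (Dcr KO minus Dcr WT) of each tested gene in the 9 pathway lists and in 5 lists of related receptors and other cells; colours give the limma call, black bars the list medians and the dotted line the median of coding features. Mural and fibroblast markers lie mostly to the left, with medians of −1.57 and −1.47, and stem cell markers lie around 0.02.

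Of the 4 other ligand genes, 0 rose and 1 fell. This was Pgf, which encodes placental growth factor, a ligand of the Flt1 product, at 54.9 ± 6.2 in Dcr KO and 246 ± 78 in Dcr WT (log2 fold change −2.11 ± 0.34, adjusted p = 0.00168). Vegfb, another ligand of the Flt1 product, was at −0.68 ± 0.27 (adjusted p = 0.0781). Vegfc and Vegfd, the ligands of the Flt4 product, were at 0.31 ± 0.17 and −0.07 ± 0.17 (adjusted p = 0.195 and 0.789). With p under 0.05 before adjustment, 0 of the 4 were higher and 2 lower. In edgeR, in DESeq2, under total count scaling and without Dcr WT library 2 the counts were 0 and 2.

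Of 5 genes of the angiopoietin system, 1 rose and 1 fell. Tie1, the partner receptor of Tek, stood at 1765 ± 598 in Dcr KO and 408 ± 299 in Dcr WT (log2 fold change 2.28 ± 0.43, adjusted p = 0.00426). Leaving out Dcr WT library 1 gave a log2 fold change of 3.11 for Tie1, and leaving out library 2 gave 1.46. Ptprb, the phosphatase gene that restrains Tek, was named after its values were seen. It fell at a low level (−1.75 ± 0.54, adjusted p = 0.0341) but not without Dcr KO line 1, 3 or 4 or Dcr WT library 1 (adjusted p = 0.0772, 0.0998, 0.0628 and 0.139). Without Dcr WT library 2, 2 of the 5 rose. The ligand genes Angpt1 and Angpt2 were at no more than 23.0 and 91 in any library and did not pass (adjusted p = 0.153 and 0.107).

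Of 12 class 3 semaphorin and plexin genes, 1 rose and 3 fell. Plxnd1, the receptor of semaphorin 3E on endothelium, fell to 713 ± 28 in Dcr KO, against 2720 ± 151 in Dcr WT (−1.93 ± 0.17, adjusted p = 7.4e-05). Its ligand gene Sema3e was at −0.05 ± 0.16 (adjusted p = 0.843). Sema3b rose (1.16 ± 0.20, adjusted p = 0.0027), and Sema3f, a ligand of neuropilin 2, fell (−0.77 ± 0.18, adjusted p = 0.0109) but not without Dcr KO line 3 (adjusted p = 0.0586). Plxna3 fell (−0.56 ± 0.16, adjusted p = 0.0261) but not without Dcr KO line 1, 3 or 4 (adjusted p = 0.0772, 0.0531 and 0.0783). Without line 3 the number that fell was 1.

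Of 33 genes that carry the receptor signal, 7 rose and 4 fell, with a median of −0.07. The number that fell was 9 under total count scaling, 1 without Dcr KO line 3 and 2 without line 4. The adaptor gene Nck2 rose (1.06 ± 0.15, adjusted p = 0.00108), as did Pik3r1, a regulatory subunit of phosphoinositide 3-kinase (0.89 ± 0.17, adjusted p = 0.00439). Sos1, a Ras exchange factor gene, rose (0.98 ± 0.22, adjusted p = 0.00924) but not without Dcr KO line 1 or 3 (adjusted p = 0.0656 and 0.053). Nfatc1, a transcription factor gene downstream of calcineurin, fell (−0.99 ± 0.22, adjusted p = 0.00788). Shb, Yes1, Pik3ca and Akt1 also rose (log2 fold changes 0.63 to 0.88), and Plcg2, Vav2 and Map2k2 also fell (−0.72 to −0.50). Calls were lost for Plcg2 without Dcr KO line 3 or 4 (adjusted p = 0.0721 and 0.062), Vav2 without line 1 or 3 (0.0598 and 0.0832), Shb without line 3 (0.0621), and Map2k2 without any 1 line or Dcr WT library 1 (up to 0.113). Plcg1, the phospholipase that binds activated Kdr product, was at −0.07 ± 0.13 (adjusted p = 0.704).

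Hypoxia genes were followed because the Hif factors, which act in low oxygen, drive Vegfa. Of 10 genes of oxygen sensing, 3 rose and 1 fell. Arnt2, a partner of Hif factors, rose (1.63 ± 0.14, adjusted p = 7.73e-05), as did Epas1, which encodes Hif2a, at 43618 ± 9188 in Dcr KO and 16782 ± 1302 in Dcr WT (1.36 ± 0.19, adjusted p = 0.000786), and the Hif inhibitor gene Hif1an (0.73 ± 0.13, adjusted p = 0.00367). Hif3a fell (−0.75 ± 0.15, adjusted p = 0.00614) and Hif1a was at 0.07 ± 0.14 (adjusted p = 0.747). Of 10 hypoxia-inducible genes tested, the class to which Vegfa belongs, 1 rose (2 without Dcr WT library 1) and 4 fell. Ankrd37 (−1.92 ± 0.23, adjusted p = 0.000446), the glycolysis gene Pgk1 (−1.17 ± 0.24, adjusted p = 0.00553) and Bnip3 (−1.07 ± 0.20, adjusted p = 0.00405) fell, as did Adm, the adrenomedullin gene, at a low level (−1.52 ± 0.38, adjusted p = 0.0148, but 0.0576 and 0.0521 without Dcr KO line 3 or 4), and Ndrg1 rose (1.10 ± 0.19, adjusted p = 0.00287).

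Of 22 endothelial surface and junction markers tested, 5 rose and 7 fell, against 20.5% higher and 22.7% lower among coding features. The summed value of the 25 such genes with a row was 51007 to 54577 in the Dcr KO lines and 51867 and 52359 in the Dcr WT libraries. Eng and Mcam, which did not pass, had the largest means in these sums. Eng was at 20279 in Dcr KO and 17153 in Dcr WT, and Mcam at 14755 and 17700. S1pr1, the sphingosine-1-phosphate receptor gene, rose to 1805 ± 75 in Dcr KO, against 283 ± 61 in Dcr WT (2.69 ± 0.20, adjusted p = 3.98e-05). Plvap, which forms the diaphragms of endothelial pores, fell to 92.7 ± 19.1 in Dcr KO, against 2146 ± 216 in Dcr WT (−4.53 ± 0.25, adjusted p = 1.61e-05). Ramp2, part of the adrenomedullin receptor, fell too (−2.34 ± 0.37, adjusted p = 0.00172). The guidance receptor gene Robo4 (1.97 ± 0.22, adjusted p = 0.000287), Vwf, which encodes von Willebrand factor (1.43 ± 0.19, adjusted p = 0.000712), Clec14a and Tie1 were the others that rose. Clec14a, at a mean of 11.1 ± 2.1 in Dcr KO and 0.913 ± 1.291 in Dcr WT, was not called by edgeR or DESeq2 (adjusted p = 0.0954 and 0.0852), nor without any 1 line or Dcr WT library 1 (up to 0.113). Cd34, Egfl7, Nos3, Stab1 and Procr were the others that fell, among them the endothelial nitric oxide synthase gene Nos3 to 901 ± 262 in Dcr KO, against 2345 ± 465 in Dcr WT. The defining junction gene Cdh5 was at 82, 69 and 50 in the Dcr KO lines and 213 and 38 in the Dcr WT libraries, and did not pass (adjusted p = 0.598). Emcn, Adgrl4 and Lyve1 were at 0 in all 3 Dcr KO libraries and at no more than 8.05 in Dcr WT. Sele was at 0 in both Dcr WT libraries and at no more than 0.764 in any Dcr KO library. Of 8 ESC markers, 0 rose and 1 fell, Tdgf1 (−0.86 ± 0.24, adjusted p = 0.0224), a call lost without any 1 knockout line or Dcr WT library 1 (adjusted p = 0.0591, 0.0661, 0.0918 and 0.0597), while 2 fell without library 2 or under total count scaling, and 2 rose without library 1. With p under 0.05 before adjustment, 1 was higher and 1 lower, and both edgeR and DESeq2 called 0 higher and 1 lower. The ESC markers summed to 927216 to 1088820 in Dcr KO and 922878 to 1051940 in Dcr WT.

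Of 22 endothelial and blood transcription factor genes, 6 rose and 4 fell, with a median of 0.18. Nr2f2, a factor of venous identity, rose to 547 ± 115 in Dcr KO, against 38 ± 6.0 in Dcr WT (3.80 ± 0.29, adjusted p = 4.44e-05), and the ETS factor gene Elf4 rose (1.79 ± 0.19, adjusted p = 0.000232). Runx1, which drives blood formation from endothelium, fell (−1.86 ± 0.37, adjusted p = 0.0051), as did Sox7 (−1.64 ± 0.37, adjusted p = 0.00983). Tal1, Ets2, Klf2 and Mef2c also rose (log2 fold changes 1.02 to 2.25), and Ets1 and Sox18 also fell (−1.35 ± 0.29 and −0.99 ± 0.22). Leaving out Dcr KO line 1 ended the call of Tal1 (adjusted p = 0.0609). Etv2, the ETS factor upstream of Kdr+ endothelial progenitors, was at −0.34 ± 0.30 (adjusted p = 0.414). Of 8 Notch genes, 2 rose and 3 fell. The number that rose was 0 without Dcr KO line 1 or 4, and 1 without line 3, without Dcr WT library 2 and under total count scaling. Notch1 rose by a log2 fold change of 0.44 ± 0.14 (adjusted p = 0.0383), but did not pass without any 1 knockout line, without Dcr WT library 1 or under total count scaling (adjusted p up to 0.132). The ligand genes Dll1 (−1.22 ± 0.26, adjusted p = 0.00756) and Jag2 (−0.68 ± 0.15, adjusted p = 0.00873) fell. Notch4, a receptor of endothelium, rose (1.06 ± 0.31, adjusted p = 0.0284) but not without Dcr KO line 1 or 4 or Dcr WT library 2 (adjusted p = 0.141, 0.127 and 0.0931), and Nrarp fell (−0.76 ± 0.21, adjusted p = 0.0216) but not without line 1 or 3 or library 1 (adjusted p = 0.0871, 0.0895 and 0.0697).

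Markers of other cells were counted in the same way, against 20.5% higher and 22.7% lower among coding features. Of 10 mural cell markers, 0 rose and 7 fell, with summed values of 15232 to 20428 in the Dcr KO lines and 87390 and 99639 in the Dcr WT libraries. The contractile genes Cnn1 (log2 fold change −3.67 ± 0.29, adjusted p = 5.05e-05), Acta2 and Tagln and the receptor gene Notch3 (−2.39 ± 0.15) were among those that fell, and leaving out a line moved Acta2 between −5.49 and −3.94. With p under 0.05 before adjustment 0 were higher and 8 lower, and edgeR and DESeq2 on recovered reads also called 0 higher. Of 13 fibroblast markers tested, 2 rose (0 without Dcr KO line 1 or 3) and 6 fell, with sums of 10342 to 10751 in Dcr KO and 14547 and 20000.2 in Dcr WT. The sums cover all 14 listed genes, and Col5a1, which did not pass, had the largest mean (5918 in Dcr KO, 6136 in Dcr WT). Col1a1 had a mean of 94 in Dcr KO, against 1867 and 5516 in Dcr WT libraries 1 and 2. Col1a2 had a mean of 1.65 in Dcr KO, against 292 and 1723 in these libraries. The 2 that rose were Dcn and Loxl1, with adjusted p of 0.0839 and 0.0599 when Dcr KO line 1 was left out and 0.0715 and 0.0509 when line 3 was, and the collagen genes Col1a1, Col1a2, Col3a1, Col6a1 and Col6a2 and the surface marker gene Thy1 fell. Of 6 blood markers tested, 1 rose, Spi1 (0 without any 1 knockout line, without Dcr WT library 2 and under total count scaling) and 2 fell, namely Itga2b and Itgam, with sums of 973 to 1040 in Dcr KO and 1404 and 1501 in Dcr WT. Postn was at 0 in all Dcr KO libraries and in Dcr WT library 1, and at 38.3 in Dcr WT library 2. Fap, Cd48, Hbb-y and Hba-x were at 0 in both Dcr WT libraries and at no more than 5.32 in any Dcr KO library. The part of such cells in the values of the 8 genes was not tested. Of the 5 class III receptor kinase genes related to Kdr, Kit rose (in 0 of the fits without a knockout line) and Pdgfrb fell (−0.99 ± 0.22, adjusted p = 0.00901), and without Dcr WT library 2 the number that fell was 2.

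The cMyc libraries allowed the same 8 genes to be read in cells without cMyc, with no replicates. The values were scaled separately from the Dcr table. Intervals are exact 95% intervals of the read ratio and cover counting error only. Kdr stood at 63.4 in cMyc KO and 44.3 in cMyc flox (70 and 42 reads), a ratio of 1.43 (0.964 to 2.15). Flt1 stood at 248 in cMyc KO and 192 in cMyc flox, a ratio of 1.29 (1.07 to 1.57), and Flt4 at 320 and 250, a ratio of 1.28 (1.08 to 1.52). Of the summed reads of the 3 receptor genes, Kdr took 10.04% (7.91 to 12.5%) in cMyc KO and 9.11% (6.65 to 12.1%) in cMyc flox, and each share lay within the interval of the other.

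In the deposited scaling Vegfa was the single gene of the 8 with a lower value in cMyc KO, at 421 against 504 in cMyc flox, a ratio of 0.836 (0.735 to 0.952). Pecam1 stood at 2473 in cMyc KO and 2018 in cMyc flox (1.23, 1.16 to 1.30), Tek at 522.9 and 458.4 (1.14, 1.005 to 1.29), and Nrp2 at 657 and 628 (1.05, 0.937 to 1.17). Nrp1 had 25 reads in cMyc KO and 13 in cMyc flox (1.65, 0.815 to 3.52). Of the 7 genes with at least 100 reads over both libraries, 0 were past 2-fold, against 0.833% of 11646 coding features with such depth (0.498% higher and 0.335% lower). The median log2 ratio of those coding features was 0.11 in the deposited scaling and 0.00 with median-of-ratios scaling. Relative to that median, the log2 ratio was 0.18 (0.10 to 0.27) for Pecam1, −0.37 (−0.55 to −0.18) for Vegfa and 0.25 (0.0071 to 0.49) for Flt4. The intervals of the other 5 genes then included 0, at 0.26 (−0.012 to 0.54) for Flt1, 0.081 (−0.10 to 0.26) for Tek, 0.41 (−0.16 to 1.0) for Kdr, −0.043 (−0.20 to 0.12) for Nrp2 and 0.62 (−0.40 to 1.71) for Nrp1. The Nrp2 ratio thus lay slightly below the median, with an interval that reached to both sides of it.

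**Figure D4:**
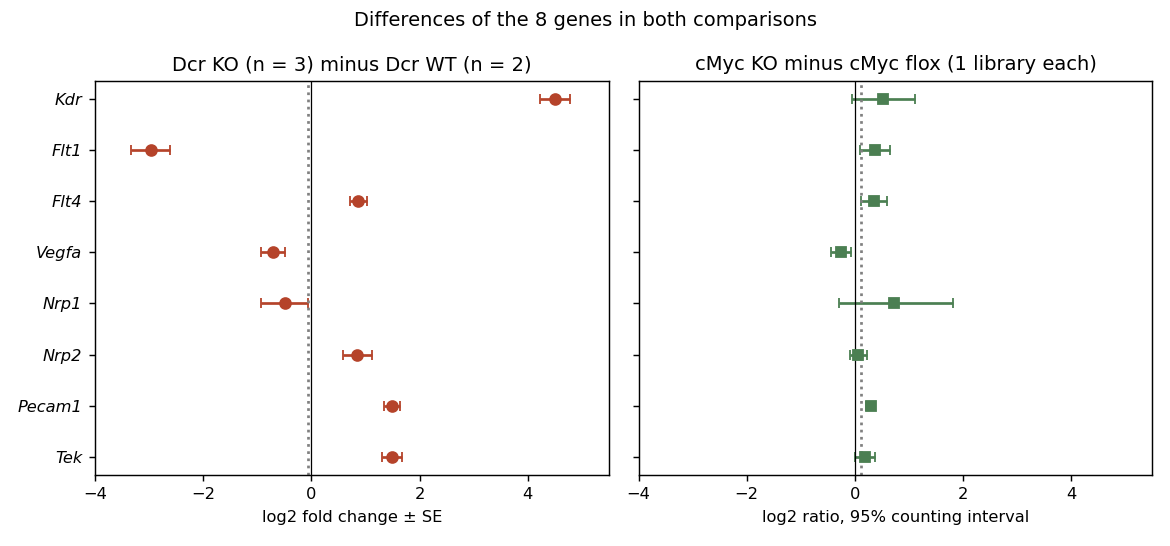
Left, log2 fold change ± SE of each gene in Dcr KO (n = 3) minus Dcr WT (n = 2); right, log2 ratio of cMyc KO to cMyc flox (1 library each) with its 95% counting interval; dotted lines are medians of coding features. Kdr lies at 4.50 and Flt1 at −2.97 on the left, and all 8 genes lie between −0.26 and 0.73 on the right.

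Side by side, Flt1 was 7.38-fold lower in Dcr KO and 1.29 times as high in cMyc KO, and Vegfa was lower in both knockouts. Kdr was 23.0 times as high in Dcr KO and 1.43 times as high in cMyc KO. In the cMyc pair the interval of the Kdr ratio included 1 (0.964 to 2.15). That of Flt1 reached to both sides of the median of coding features (log2 ratio −0.012 to 0.54 relative to it). The lines, library types and scaling differ between the tables, and the difference between the 2 comparisons was not tested. Of 86 genes of the 9 pathway lists with at least 100 reads in the cMyc libraries, 1 was past 2-fold higher and 1 past 2-fold lower. Sox18, an endothelial transcription factor gene, had a ratio of 2.43 (1.56 to 3.88), from 79 reads in cMyc KO and 28 in cMyc flox. Cdh5 was at 37 and 68 reads (0.468, 0.305 to 0.708). Among the related receptor kinases, Csf1r was at 29 reads in cMyc KO and 80 in cMyc flox (0.312, 0.196 to 0.482).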

How the data were processed

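Each deposited table holds 1 normalised signal per feature and library. The values show that the authors divided whole read counts by a factor of the library, and dividing them by the worth of 1 read gave whole numbers (within 0.01) for 100% of values in every column. The submitters' processing notes list TopHat, Bowtie, DESeq and mm9 without role or version. For the counting tool, gene models and strand the sources used here give nothing. All value columns were tied to samples.

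RefSeq identifiers were given symbols from GRCm38.p6 (20183 of 20559 matched in the Dcr table, 16839 of 17123 in the cMyc table). Dcr KO was compared with Dcr WT by limma 3.58.1 (R 4.3.3, trend) on log2(value + 1) over the 42358 features that reached 1 in 2 or more libraries, two-sided, with Benjamini-Hochberg adjustment and a threshold of 0.05. The script was tested on simulated data. Alternatives were another pseudocount (10), other filters and scalings, edgeR 4.0.16 and DESeq2 1.42.0 on recovered reads, and leaving out each library. The cMyc pair, 1 library each, got exact binomial intervals (SciPy 1.17.1) and no test. Members and gene lists were chosen with earlier results of these data known. The rule for named list genes took the called genes with the largest change, up to 4 a list, with a mean of at least 100. Other called or uncalled list genes are named after their values were seen, to show the rest of a list. The gene nearest to Flt4 in profile is not reported here.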

Additional observations from a re-analysis of the deposited data

How the results depend on the processing

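The sample labels pair no Dcr KO line (1, 3 and 4) with a Dcr WT library (1 and 2), so no paired analysis was run. Over all features 7171 rose and 6273 fell. Under total count scaling of coding features the balance turned, with 6044 higher and 7211 lower. Without each library in turn the counts ranged from 3782 to 8022 higher and from 3847 to 5935 lower. The log2 fold change, without each library in turn, ranged from 0.69 to 1.05 for Flt4, from 0.34 to 1.36 for Nrp2 and from 1.16 to 1.82 for Tek, the ends in each case being the fits without 1 of the Dcr WT libraries. It ranged from 4.19 to 4.82 for Kdr, from −3.30 to −2.63 for Flt1, from −0.75 to −0.13 for Nrp1 and from 1.39 to 1.59 for Pecam1. A fit without 1 Dcr WT library leaves the other to vary as the knockout lines do. In the Dcr comparison no member changed sign under any of the 12 alternatives run. Total count scaling of coding features moved the median log2 fold change of all features from 0.08 to −0.02. In the cMyc pair the log2 ratio of Pecam1, 0.29 as deposited, was 0.18 under total count scaling of coding features and 0.19 under median-of-ratios scaling, which moved the median of coding features by −0.11 each. The log2 ratio of Nrp2 changed sign there, at 0.065 as deposited and −0.044 and −0.041 under these scalings. Of the 80 called genes of the lists or among the neighbours, 22 lost their call without some library and 0 changed sign. Counts over the 9 pathway lists ranged from 20 to 29 higher and from 20 to 37 lower. Depth limits Nrp1 and Kdr in the cMyc pair (38 and 112 reads in all).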
